A study of Mus musculus with 359 samples.

Results

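The 10 genes described here belong to the integrated stress response and the unfolded protein response, and they were followed through a study of 4-methylimidazole (4-MEI), a small heterocyclic chemical formed when food is heated and present in caramel colours. The genes were Atf4, Atf5, Ddit3, Trib3, Asns, Chac1, Psat1, Hspa5, Herpud1 and Xbp1, taken by name as 10 of the 24421 gene rows in each of 6 count tables. RNA-seq was run on the liver and the lung of B6C3F1 mice of both sexes, a hybrid strain used in toxicology, after 2, 5 or 28 days. Mice of the 2-day arm were gavaged with vehicle or with 50, 100, 200 or 300 mg/kg-d 4-MEI, and mice of the 5-day and 28-day arms received feed holding 0, 150, 300, 1250 or 2500 ppm. The design gave 359 libraries in 60 groups, of which 59 held 6 libraries and 1 held 5 (lung, day 5, females at 2500 ppm). All groups share the strain and carry no allele or second agent in the labels, and the labels used here give no age for the mice. Route and day change together, so gavage for 2 days and feeding for 5 or 28 days cannot be told apart from each other as route or as time.

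In the integrated stress response, kinases that sense amino acid shortage, haem loss, double-stranded RNA or misfolded protein phosphorylate the translation factor eIF2-alpha, which lowers general translation and favours translation of the transcription factor ATF4. ATF4 and its partners raise genes for amino acid synthesis and uptake, together with the transcription factor DDIT3 (CHOP) and the pseudokinase TRIB3. The unfolded protein response of the endoplasmic reticulum (ER) shares one of these kinases and adds the XBP1 and ATF6 branches, which raise chaperones such as HSPA5 (BiP) and degradation factors such as HERPUD1. ATF4 and XBP1 are controlled in large part by translation and by splicing, steps that gene-level read counts do not show.

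Library totals ran from 7253910 to 22527309 counted reads. The labels did not state that each library came from a separate mouse, so p-values measure the spread between these libraries. In 96 libraries the title and the sample characteristics gave different doses, and in 48 different sexes. The titles were used, since Y-linked genes matched the sex of the title in 359 of 359 libraries and that of the characteristics in 311. Y-linked genes cannot show which dose is right, so the doses used here rest on the titles and were not checked. The tissues matched their defining markers. In vehicle mice of day 2, summed normalised read counts (CPM, reads scaled to a common library total) of 7 hepatocyte markers ranged from 114873 to 186604 in liver and from 1.63 to 319 in lung. Those of 7 lung epithelial markers ranged from 53592 to 64122 in lung and from 0.575 to 3.44 in liver. Unless a sentence says otherwise, the common total is set by edgeR's TMM factors within a table, and libraries are named by the number in their titles.

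Promoter windows of 4 of the genes are shown because they hold the 6 motif matches found among the 10 genes. A match describes the letters and assigns no gene to a branch, and Herpud1 holds elements of both. Windows are the 250 bases before the annotated start in RefSeq on GRCm38.p6, written 5′ to 3′ on the gene's strand, with matches in capitals. Asns (chr6:7693210-7693459, minus strand) holds the C/EBP-ATF response element TGATGNAA 23 bases before the start. Chac1 (chr2:119350992-119351241, plus strand) holds the same element on the opposite strand 193 bases before the start. Herpud1 (chr8:94386179-94386428, plus strand) holds it on the opposite strand, and 52 bases before the start the second ER stress element, ATTGG and CCACG with any 1 base between. Hspa5 (chr2:34771840-34772089, plus strand) holds the ER stress element, CCAAT and CCACG with any 9 bases between, at 65 bases and, further from the start, the unfolded protein response core TGACGTG.
Asns: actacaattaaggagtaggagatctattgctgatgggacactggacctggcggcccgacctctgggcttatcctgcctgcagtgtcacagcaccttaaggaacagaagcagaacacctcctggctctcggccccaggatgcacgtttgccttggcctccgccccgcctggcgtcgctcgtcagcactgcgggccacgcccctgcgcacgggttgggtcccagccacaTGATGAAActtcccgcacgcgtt
Chac1: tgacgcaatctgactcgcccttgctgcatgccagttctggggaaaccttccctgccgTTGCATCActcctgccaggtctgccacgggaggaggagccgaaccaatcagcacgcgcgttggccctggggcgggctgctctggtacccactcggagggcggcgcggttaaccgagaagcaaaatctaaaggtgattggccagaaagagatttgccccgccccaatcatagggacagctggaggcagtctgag
Herpud1: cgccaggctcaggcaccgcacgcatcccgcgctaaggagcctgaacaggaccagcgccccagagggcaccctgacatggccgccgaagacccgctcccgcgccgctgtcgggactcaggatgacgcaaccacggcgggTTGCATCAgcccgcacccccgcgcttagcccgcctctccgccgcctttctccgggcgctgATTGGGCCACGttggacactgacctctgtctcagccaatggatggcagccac
Hspa5: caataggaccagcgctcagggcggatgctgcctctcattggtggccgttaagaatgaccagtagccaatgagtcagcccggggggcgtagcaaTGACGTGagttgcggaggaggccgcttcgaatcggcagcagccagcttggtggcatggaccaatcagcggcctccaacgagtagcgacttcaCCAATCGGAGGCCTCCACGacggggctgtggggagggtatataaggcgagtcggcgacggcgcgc

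Both strands were searched, and no 2 of the 6 matches overlapped. Of 32851 windows of the same length, 3.45% held the C/EBP-ATF element, 0.113% the ER stress element, 0.0304% the second ER stress element and 1.65% the core. All 10 genes had at least 1 window, 12 windows in all. The windows of Atf4, Atf5, Ddit3, Trib3, Psat1 and Xbp1 held none of these letters, which says nothing on binding elsewhere.

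Transcript levels spanned a wide range, and the 5 most abundant genes were the same in both tissues. In vehicle livers of day 2, CPM per kilobase of exon ranged from 138.1 to 455 for Hspa5, from 95.7 to 258 for Herpud1, from 65.8 to 167 for Atf5, from 63.4 to 113.7 for Xbp1 and from 30.8 to 61.6 for Atf4 (n = 12). Neighbours in this order overlapped except Xbp1 and Atf4. The ATF4 targets and Ddit3 lay far below. CPM per kilobase ranged from 1.46 to 4.99 for Ddit3, from 0.566 to 8.37 for Trib3, from 0.271 to 5.88 for Asns, from 0.198 to 7.60 for Chac1 and from 0.0435 to 0.174 for Psat1, the phosphoserine aminotransferase of serine synthesis. In vehicle lungs of day 2 the order per kilobase was Hspa5 (124.8 to 223), Herpud1 (91.1 to 108.7), Xbp1 (72.1 to 95.2), Atf4 (64.2 to 79.01), Atf5 (45.6 to 70.2), Ddit3 (10.1 to 14.5), Asns (8.44 to 10.7), Chac1 (2.96 to 5.73), Trib3 (2.28 to 3.53) and Psat1 (2.23 to 3.31). Hspa5 did not overlap Herpud1 there, nor Atf5 Ddit3, nor Asns Chac1.

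Averaged over the sexes, liver held less Psat1 and Asns than lung, and more Atf5, Hspa5 and Herpud1 on both scales used. Psat1 reached 0.396 ± 0.166 CPM of the library total in vehicle livers of day 2 and 10.9 ± 1.34 CPM in lungs (SD, n = 12 each). The libraries of the tissues did not overlap, and this held on all 3 days for Psat1, Asns, Ddit3 and Atf4. Over all genes tested in either tissue, 79.7%, 78.8% and 76.8% did not overlap on days 2, 5 and 28. Psat1 was lower in liver by a log2 difference of -3.53, -3.75 and -4.16 on days 2, 5 and 28 (TMM scale, adjusted p = 2.18e-37, 7.35e-42 and 2.14e-47, edgeR's quasi-likelihood test with Benjamini-Hochberg adjustment). Asns, the glutamine-dependent asparagine synthetase, was lower in liver by -1.68, -1.80 and -1.98. The Asns values average the sexes, which differed in liver Asns. Vehicle livers of day 2 had medians of 9.26 CPM in males and 0.891 CPM in females. The TMM-scale difference of Asns was not tested within a sex. Ddit3, the pro-apoptotic CHOP factor, was lower by -0.88, -0.58 and -0.77. Atf5, a mitochondrial stress factor abundant in liver, was higher in liver by 2.33, 3.19 and 2.71, and Herpud1 by 1.86, 2.11 and 2.03. Trib3, which binds AKT and ATF4, was higher by 2.91 on day 5 and 2.51 on day 28, with 21.6 ± 7.30 CPM in liver and 7.35 ± 0.837 CPM in lung on day 5.

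Of 30 such tests, 27 passed, all but those of Chac1. Most genes differ between the tissues, and 91.3%, 90.4% and 90.2% of all genes tested passed on days 2, 5 and 28, so the share among the 10 genes is near the background. The direction of 4 genes depended on scaling, because TMM moved the liver minus lung difference by a median of 1.22, 1.35 and 1.298 on days 2, 5 and 28 relative to CPM of the library total. Atf4 was higher in liver by 0.55, 0.54 and 0.34 on the TMM scale and lower by -0.67, -0.81 and -0.97 on the library-total scale. Trib3 on day 2 moved from 0.99 to -0.25, and Xbp1 on days 5 and 28 from 1.13 and 1.09 to -0.21 and -0.20. Chac1, which passed on no day, moved on days 5 and 28 from 0.49 and 0.37 to -0.86 and -0.93. Fewer expressing cells and less RNA per cell cannot be told apart in bulk tissue.

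The largest difference between groups of mice within a tissue was a sex difference in liver Asns. In vehicle livers of day 2, Asns ranged from 5.87 to 16.1 CPM in males (median 9.26, n = 6) and from 0.740 to 2.36 CPM in females (median 0.891, n = 6). On day 5 males ranged from 9.88 to 19.2 CPM (median 14.5) and females from 0.441 to 1.13 CPM (median 0.576). On day 28 males ranged from 8.08 to 17.8 CPM (median 12.4) and females from 0.359 to 1.21 CPM (median 0.762). No female library reached the lowest male library on any day. The log2 difference, female minus male, was -3.05 (SE 0.50), -4.37 (SE 0.41) and -4.11 (SE 0.39) on days 2, 5 and 28, with adjusted p = 1.03e-05, 9.35e-13 and 3.49e-12 by edgeR's quasi-likelihood test. The difference passed in every fit that left out 1 library.

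The separation of Asns by sex was also present in dosed livers. Male and female libraries did not overlap in 14 of 15 combinations of day and dose, where 8.18% of all genes tested in liver and 1.32% in lung did not overlap, and the mean of the males was 5.23 to 28.8 times that of the females. The exception was day 2 at 200 mg/kg-d, where 1 female library (replicate 64) held 9.52 CPM and its group a median of 0.945 CPM. Over all 90 female livers Asns had a median of 0.867 CPM and a lowest count of 2 reads, against 23 reads in males. The ratios of the means therefore rest on few reads in females. In lung, male and female libraries overlapped in all 15 combinations, with vehicle differences of 0.01, -0.14 and -0.00 (adjusted p = 0.999, 0.594 and 0.996). The sex difference of lung was not tested against that of liver. Among the other genes, Atf4 was lower in female than in male vehicle livers on day 5, with 78.5 to 121.9 CPM (median 96.2) in females and 106.2 to 150 CPM (median 121.4) in males, groups that overlap. Its log2 difference was -0.38 (SE 0.13, adjusted p = 0.0275), and it no longer passed without male replicate 81 or 85 or female replicate 91, 93 or 94, where the adjusted p was 0.0525, 0.0883, 0.0866, 0.0575 and 0.0709.

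Hence 4 of 59 sex tests passed, 3 of Asns and 1 of Atf4. Among all genes tested, 13.7%, 18.2% and 22.2% passed in liver on days 2, 5 and 28, and 0.164%, 0.293% and 0.364% in lung. Xbp1 on days 5 and 28 had log2 differences of -0.36 and -0.38 (adjusted p = 0.0582 and 0.0584) and did not pass, while in DESeq2 it did (adjusted p = 0.0475 and 0.0493). Without female replicate 89 the day 5 value of Xbp1 was -0.43 (adjusted p = 0.0295).

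**Figure D1:**
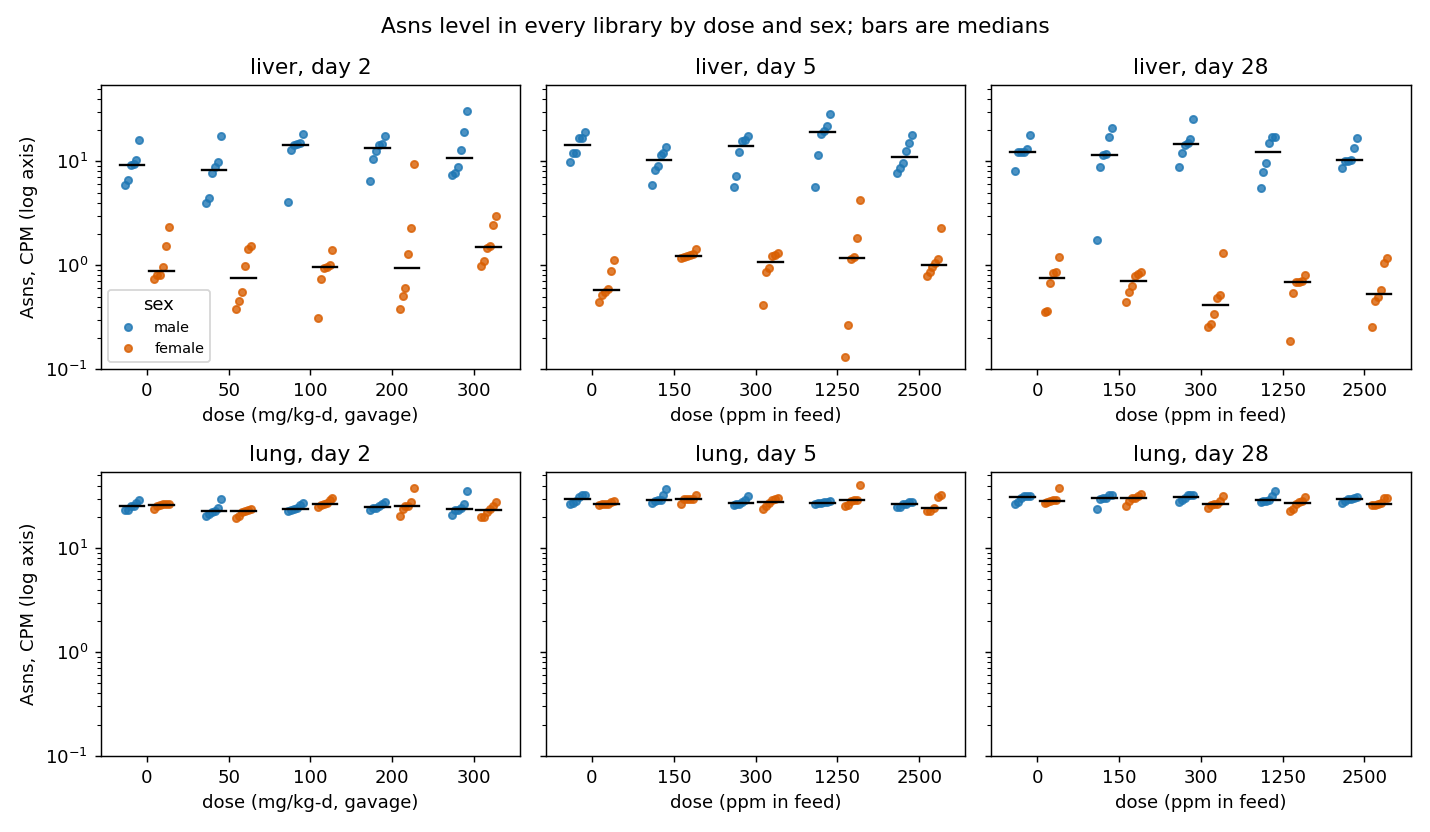
Asns in CPM (log axis) in every library by dose, with liver in the upper and lung in the lower panels and days 2, 5 and 28 from left to right. Points are libraries, blue for males and orange for females, and bars are group medians. Liver points of the sexes are separate in 14 of 15 dose columns, and lung points overlap in all 15.

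Against vehicle, none of the 10 genes passed the test at any dose, day, sex or tissue. The 48 comparisons gave 472 tests (Psat1 did not pass the low-count filter in liver on day 28), of which 0 passed an adjusted p of 0.05 in edgeR's quasi-likelihood test, 31 had an unadjusted p below 0.05, and 0 passed in DESeq2. Over all genes and the 8 comparisons of a table, the share called was 8.34%, 0.0789% and 0.196% in liver on days 2, 5 and 28, and 1.8%, 0.0159% and 0.0543% in lung. Only the day 2 tables therefore had a background in which calls were frequent. In female livers at 300 mg/kg-d, 30% of all genes passed and 0 of the 10, and in male livers 15.1% and 0 of 10. In lung at 300 mg/kg-d, 8.73% of all genes passed in females and 0.21% in males, again with 0 of 10. At the highest dose, the median log2 fold change of the genes was 0.25 in males and 0.15 in females in liver on day 2, beside -0.00 and -0.02 over all genes tested. Above 0 were 9 of 10 genes in males and 8 of 10 in females. The median was 0.02 and -0.13 in lung, beside 0.02 and 0.00, with 5 and 3 of 10 genes above 0. On the feed days the medians in liver were -0.15 in males on both days (1 of 10 genes above 0 on day 5, 3 of 9 on day 28). In females they were 0.05 and 0.16 on days 5 and 28 (7 of 10 and 6 of 9 above 0). In lung they lay between -0.18 and -0.01, and the lowest, in females of day 28, had 1 of 10 genes above 0. The feed-day medians are given without the median over all genes.

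**Figure D2:**
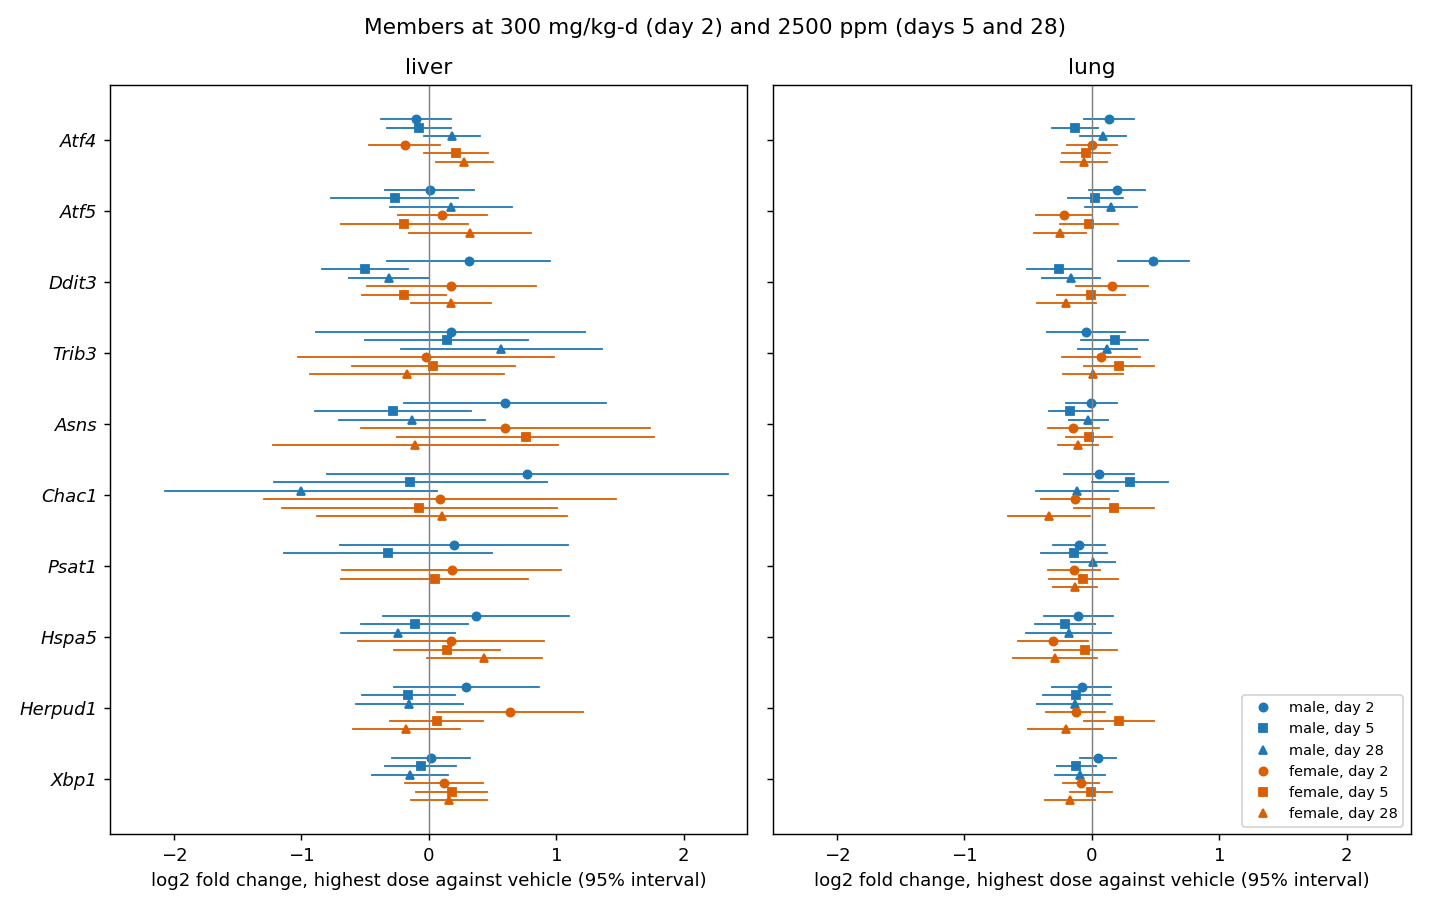
Log2 fold change of each gene at the highest dose against vehicle of the same sex and day, with 95% intervals, in liver (left) and lung (right). Colours give sex and symbols the day. Intervals are widest for Chac1, Asns and Trib3 in liver and narrow for all 10 genes in lung.

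The width of the intervals differed between the tissues. In lung every fold change lay between -0.45 and 0.48 on the log2 scale over 240 tests, with a median SE of 0.12 and no 95% interval reaching beyond -0.78 or 0.76. In liver the 232 values ranged from -1.38 to 1.80, with a median SE of 0.25 and intervals reaching -2.94 and 3.32. The widest intervals were those of Chac1. Fold changes of Atf4, the central factor, lay between -0.20 and 0.28 in liver and between -0.15 and 0.16 in lung, with no interval beyond -0.47 or 0.54. Those of Atf5 lay between -0.27 and 0.32 in liver and between -0.25 and 0.20 in lung, with no interval beyond -0.77 or 0.80. Xbp1, the transcription factor spliced by IRE1, ranged from -0.15 to 0.27 in liver and from -0.18 to 0.11 in lung.

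Ddit3 varied more. In male livers of day 28 it ranged from 4.36 to 8.79 CPM (median 5.95) with vehicle, from 3.09 to 5.16 CPM (median 3.94) at 150 ppm, from 4.01 to 6.24 CPM (median 4.77) at 300 ppm, from 3.30 to 4.76 CPM (median 4.44) at 1250 ppm and from 3.07 to 6.29 CPM (median 4.96) at 2500 ppm. All 4 dosed medians were below the vehicle median, and each dosed group overlapped vehicle. The log2 fold changes were -0.60, -0.28, -0.50 and -0.31, with adjusted p = 0.0874, 0.599, 0.106 and 0.592 by edgeR's quasi-likelihood test. Ddit3 overlaps Mars on the opposite strand, and the strand setting of the counting is not given in the sources used here. In female livers of day 2, Ddit3 was between 2.503 and 5.30 CPM with vehicle (median 3.64) and between 4.88 and 11.03 CPM at 100 mg/kg-d (median 7.32), overlapping groups with a log2 fold change of 1.00 (adjusted p = 0.287). At 300 mg/kg-d the median was 3.68 CPM.

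Fold changes of the ATF4 targets in liver did not pass. Chac1, which degrades glutathione, ranged in male livers of day 2 from 0.509 to 3.06 CPM with vehicle (median 1.41), from 1.85 to 12.5 CPM at 50 mg/kg-d (median 3.77) and from 0.625 to 4.95 CPM at 300 mg/kg-d (median 2.93). Its log2 fold changes at 50, 100, 200 and 300 mg/kg-d were 1.80, 1.62, -0.63 and 0.77, with no order by dose. Chac1 in lungs of day 2 gave the smallest adjusted p of all 472 tests. It ranged from 6.46 to 9.37 CPM in vehicle females (median 7.41) and from 4.18 to 7.02 CPM at 200 mg/kg-d (median 5.72), which overlap, and the log2 fold change was -0.40 (SE 0.14, adjusted p = 0.0682). Chac1 had a median of 7.09 CPM at 300 mg/kg-d. Trib3 in liver ranged from -1.04 to 0.57 in log2 fold change and Asns from -0.52 to 1.18. The dosed and vehicle libraries of a gene did not overlap in 1 of 232 comparisons in liver and 4 of 240 in lung, beside 1.44% and 1.02% over all genes tested, which is near the background.

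Hspa5, the ER chaperone BiP, ranged in female lungs of day 2 from 528 to 715 CPM with vehicle (median 587) and from 445 to 554 CPM at 300 mg/kg-d (median 468). The groups overlap, and the log2 fold change was -0.30 (SE 0.14, adjusted p = 0.160). It passed when only these 2 groups were fitted (adjusted p = 0.0114). The fold changes of Hspa5 at the highest dose were below 0 in all 6 lung comparisons, from -0.30 to -0.05, and in 2 of 6 liver comparisons.

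Slopes over dose gave 3 calls among the 10 genes in 12 trends, each of which was lost without 1 library. Herpud1, a partner of the ER ubiquitin ligase HRD1, rose with dose in female livers of day 2. It ranged from 235 to 409 CPM with vehicle (median 262), from 239 to 436 CPM at 50 mg/kg-d (median 289), from 256 to 438 CPM at 100 mg/kg-d (median 303), from 316 to 949 CPM at 200 mg/kg-d (median 361) and from 315 to 619 CPM at 300 mg/kg-d (median 393). Medians rise at each step, and vehicle replicate 11 at 409 CPM lies within the 300 mg/kg-d range. The slope was 0.23 log2 units per 100 mg/kg-d (SE 0.083, adjusted p = 0.0231, edgeR's quasi-likelihood test), beside 39.5% of all genes called in this trend. The adjusted p was 0.0512 without replicate 64 (200 mg/kg-d), 0.0653 without replicate 77 and 0.0708 without replicate 80 (both 300 mg/kg-d). In male livers the slope was 0.06 (adjusted p = 0.682), with medians of 409 CPM for vehicle and 427 CPM at 300 mg/kg-d. The log2 fold change of females at 300 mg/kg-d was 0.63 (adjusted p = 0.0844), or 0.76 (adjusted p = 0.0495) without vehicle replicate 11, and at 200 mg/kg-d it was 0.67 (adjusted p = 0.0927), where 16.8% of all genes passed. The fit without replicate 11 was the 1 of 25 leaving out 1 library that passed at 300 mg/kg-d. Over the 25 fits the fold change ranged from 0.50 to 0.76, with adjusted p up to 0.202. Herpud1 overlaps the antisense gene Gm15890.

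Ddit3 had a called positive slope over dose in male lungs of day 2, although its medians did not rise at each step. It ranged from 19.1 to 24.8 CPM with vehicle (median 20.6), from 16.3 to 19.4 CPM at 50 mg/kg-d (median 18.6), from 15.1 to 20.5 CPM at 100 mg/kg-d (median 18.8), from 17.9 to 21.7 CPM at 200 mg/kg-d (median 20.7) and from 19.1 to 61.5 CPM at 300 mg/kg-d (median 23.7). Replicate 66 at 300 mg/kg-d, with 61.5 CPM, stood alone, and the other groups overlap. The slope was 0.18 per 100 mg/kg-d (SE 0.041, adjusted p = 0.0143), beside 2.57% of all genes called. Without replicate 66 it was 0.075 (adjusted p = 0.0875). The mean of the sexes at 300 mg/kg-d was also called, at 0.32 (SE 0.099, adjusted p = 0.0284) with 10.4% of all genes called, and was 0.15 (adjusted p = 0.0678) without replicate 66. Against vehicle of the same sex, the log2 fold change at 300 mg/kg-d was 0.48 (adjusted p = 0.0895), and without replicate 67 or 68 of that dose it was 0.58 in both fits (adjusted p = 0.0340 and 0.0227). Those were the 2 that passed of 16 fits leaving out 1 library. Over the 16 fits it ranged from 0.14 to 0.58, with adjusted p up to 0.473 in edgeR's quasi-likelihood test. In replicate 66 summed lung epithelial markers were 172142 CPM, against 45467 to 63763 CPM in the others of its group. Endothelial markers were 1676 CPM against 2919 to 3575 CPM, and neutrophil markers 339 CPM against 34.6 to 66.6 CPM. Their part in the Ddit3 value was not tested.

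Atf4 rose with dose in female livers of day 28. It ranged from 73.7 to 103.5 CPM with vehicle (median 88.3), from 77.03 to 93.4 CPM at 150 ppm (median 81.9), from 83.1 to 102.1 CPM at 300 ppm (median 91.2), from 88.4 to 103.6 CPM at 1250 ppm (median 96.9) and from 87.4 to 127.9 CPM at 2500 ppm (median 106.3). Each dosed group overlaps vehicle. The slope was 0.13 per 1000 ppm (SE 0.037, adjusted p = 0.0293), beside 6.42% of all genes called, and 0.04 (adjusted p = 0.775) in males. The adjusted p was 0.111, 0.121 and 0.0740 without replicate 233, 234 or 236 at 2500 ppm. With the place of the library among its 8 consecutive title numbers as a term, the slope was 0.087 (adjusted p = 0.0771). The mean place was 5.33 for vehicle and 4.17 at 2500 ppm. The other 9 trends gave no call among the genes, beside 3.37% of all genes. Asns in female livers of day 2 had a slope of 0.38 per 100 mg/kg-d (adjusted p = 0.0593, 0.0344 in DESeq2, and 0.0387 or 0.0493 without vehicle replicate 9 or 300 mg/kg-d replicate 80), with group medians of 0.891 CPM for vehicle and 1.503 CPM at 300 mg/kg-d. Over all 12 liver and 12 lung sex means, 1 of 236 tests of the 10 genes passed, beside 4.56% and 1.61% of all genes.

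**Figure D3:**
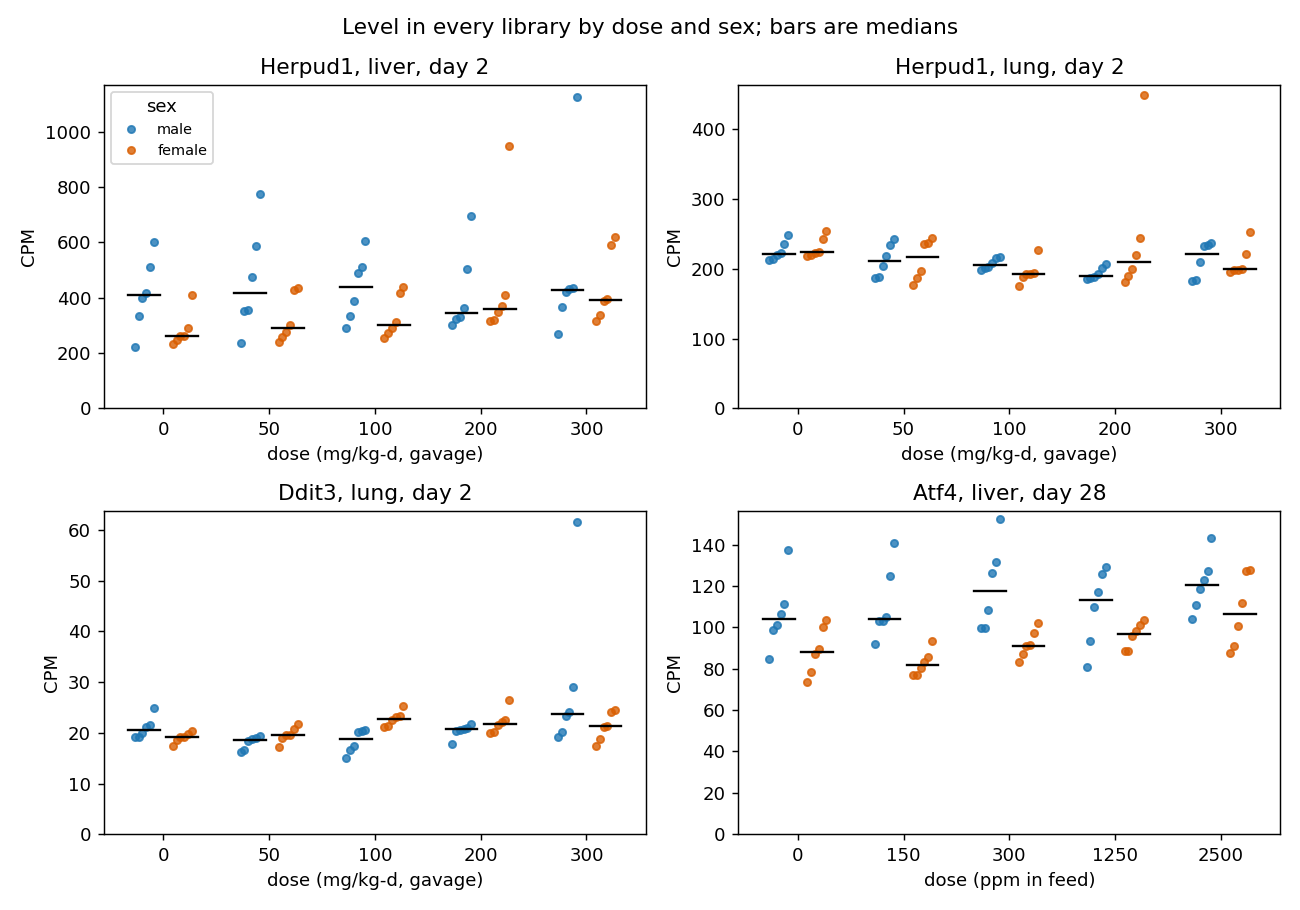
Herpud1 in liver and lung on day 2, Ddit3 in lung on day 2 and Atf4 in liver on day 28, in CPM in every library by dose. Blue points are male and orange points female libraries, and bars are group medians. Female liver Herpud1 medians go from 262 to 393 CPM, while Ddit3 at 300 mg/kg-d holds 1 male library at 61.5 CPM.

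Differences between effects were tested directly. The effect of the highest dose did not differ between the sexes for any gene (0 of 59 tests passed, 4 had an unadjusted p below 0.05, DESeq2 called 0), where 0.00706% of all genes did. The smallest adjusted p was 0.338, for Atf5 in lung on day 2. Between day 28 and day 5 at 2500 ppm, 0 of 20 tests passed in edgeR's quasi-likelihood test, 1 had an unadjusted p below 0.05, and 0.00343% of all genes passed. Between liver and lung, Herpud1 on day 2 was the 1 gene that passed of 30 tests. Its sex-mean effect at 300 mg/kg-d was 0.60 higher in liver than in lung (SE 0.22, adjusted p = 0.0386), in a fit that treats liver and lung libraries of the same title number as separate. It did not pass with a replicate block on these numbers, in a fit with fewer samples. On day 2 lung values of Herpud1 ranged from 212 to 253 CPM with vehicle and from 183 to 253 CPM at 300 mg/kg-d. The share of all genes passing this test was 20%, 0.062% and 0.192% on days 2, 5 and 28. For Asns on day 2 the difference was 0.71 (adjusted p = 0.101).

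The wider pathway was read from 8 lists holding 94 measured genes besides the 10, which include kinases, partners, amino acid enzymes, transporters, tRNA synthetases and ER and mitochondrial folding genes. In female livers at 300 mg/kg-d, 26 of 88 tested genes passed, 12 higher and 14 lower. That is 29.5%, beside 30% of all genes. In male livers 7 of 88 passed (7.95%, beside 15.1% of all genes), 3 higher and 4 lower. In female lungs 12 of 92 passed (13.04%, beside 8.73%), 5 higher and 7 lower. In male lungs 0 of 92 passed in edgeR's quasi-likelihood test, with 12 at an unadjusted p below 0.05. On days 5 and 28 at 2500 ppm the 1 call in the 8 comparisons was the cystine transporter Slc7a11 in female lungs of day 28, at 0.47.

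The genes that passed moved in both directions within most lists. Among the partners and regulators in female livers, 3 of 12 rose and 1 fell. Cebpg, the C/EBP-gamma partner of ATF4, rose from 72.4 ± 2.09 to 95.3 ± 9.59 CPM in females (log2 0.40) and from 76.2 ± 5.75 to 99.2 ± 5.63 CPM in males (log2 0.38; SD, n = 6 each). Fgf21, a hormone of the fasted liver, rose by 1.47 in females, from 1.14 ± 0.589 to 3.05 ± 1.54 CPM. Amino acid synthesis genes passed downwards only, 3 of 9 in female and 1 of 9 in male livers. Shmt2, the mitochondrial serine hydroxymethyltransferase, fell from 249 ± 19.4 to 204 ± 14.2 CPM in females and from 251 ± 12.1 to 204 ± 12.3 CPM in males. Aldh18a1, of proline synthesis, fell by 1.01 in female livers and by 0.57 in female lungs. Cbs, of transsulphuration, fell by 0.41 in female livers and rose by 0.69 in female lungs, where 1 of 12 genes of the list rose and 3 fell. The glycine transporter Slc6a9 rose by 0.76 in female livers while the neutral amino acid transporter Slc1a4 fell by 1.24. Of 12 tRNA synthetases 2 fell in each sex, and Cars was among them in both.

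Genes of the ER sensors and of the ER chaperones passed in both directions. Atf6, the sensor cleaved in the Golgi, rose from 73.5 ± 4.79 to 107.9 ± 9.29 CPM in female livers and from 85.5 ± 12.3 to 116.96 ± 9.89 CPM in male livers. Ern1, the kinase and nuclease that splices Xbp1, rose by 0.39 in females and by 0.65 in males. The cochaperone Dnajb9 rose by 0.93 in female livers and by 0.28 in female lungs. The calcium-binding chaperone Calr fell by 0.71 in female livers and by 0.43 in female lungs, and the disulphide isomerase Pdia6 by 0.63 and by 0.51. Of 16 chaperone genes tested in female livers, 2 rose and 3 fell, and of 16 sensor and degradation genes 3 rose and 2 fell, among them Derl2 at -0.32. Hspa5 itself had a log2 fold change of 0.17 there. Other markers moved in the same groups. In female livers 3 of 8 fasting genes and 5 of 6 tested immediate early genes rose, and the nuclear RNA Neat1 fell by 1.63 in females and by 0.94 in males. Summed hepatocyte markers ranged from 136585 to 186604 CPM in vehicle females and from 180588 to 200989 CPM at 300 mg/kg-d. In livers of both sexes the endothelial genes Kdr (0.36 in females, 0.43 in males) and Pecam1 (0.32 and 0.28) rose and the macrophage gene Cd5l fell (-0.41 and -0.50). These lists held 6 endothelial and 7 macrophage genes. Females also had Stab2 higher (0.40) and Timd4 and Cd68 lower (-0.38 and -0.34), and in males no other gene of either list passed. In female lungs 5 of 7 T and NK cell markers fell and 3 of 6 macrophage markers rose (Cd5l 3.12, Vsig4 2.22). There 2 of 5 muscle markers rose (Tnnt3 2.35) and 2 of 3 hepatocyte markers fell (Alb -4.75). The SD exceeded the mean for Alb with vehicle and for Cd5l, Vsig4 and Tnnt3 at 300 mg/kg-d. Cd5l was at 3.60 ± 6.35 CPM and Tnnt3 at 6.89 ± 13.4 CPM at that dose. These fold changes therefore do not show a shift of the whole group. For the T and NK cell genes Prf1, Gzma, Nkg7 and Klrd1 the SDs were below the means. The part of the other markers in these changes was not tested.

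For part of the 10 genes, libraries of 1 group differed among themselves far more in liver than in lung. The within-group SD in liver on day 2, on the log2 scale, was 1.28 for Chac1, 0.90 for Trib3, 0.80 for Asns, 0.64 for Hspa5, 0.52 for Ddit3 and 0.48 for Herpud1, beside a median of 0.23 over all genes tested. It was 0.31 for Atf5, 0.27 for Xbp1 and 0.25 for Atf4, closer to that median. In lung on the same day the 10 genes lay between 0.12 and 0.26, beside 0.20. On days 5 and 28 the liver SD of Ddit3 was 0.29 and 0.27, beside medians of 0.24 and 0.20. Over all 180 livers Chac1 ranged from 0.0993 to 15.7 CPM, whereas over 179 lungs it ranged from 3.82 to 10.7 CPM.

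Female replicate 64 at 200 mg/kg-d stood apart for part of the genes in each tissue. Its liver held 949 CPM of Herpud1 (group median 361), 9.52 CPM of Asns (0.945), 9.43 CPM of Chac1 (2.78), 14.8 CPM of Trib3 (4.57) and 1.54 CPM of Psat1 (0.505), which was the highest Psat1 of all livers. Its Hspa5 (1173 CPM, group median 1074) and Ddit3 (3.54 CPM, 4.86) did not stand apart, and its Atf4 (130.8 CPM, group median 105.8) was within the range of its group. The lung with the same number held 38.02 CPM of Asns (group median 25.3), 253 CPM of Atf4 (168), 11.04 CPM of Trib3 (6.17) and 449 CPM of Herpud1 (210). Its Chac1, at 4.18 CPM (5.72), was the lowest of the group, and Psat1 (11.1 CPM, 10.9), Ddit3 (21.5 CPM, 21.8), Hspa5 (518 CPM, 539) and Atf5 (94.8 CPM, 109.3) were near or below their medians. In that liver the summed lists of ATF4 partners and regulators, amino acid synthesis genes and amino acid transporters came to 904, 4897 and 993 CPM, against highest values of 221, 1677 and 267 CPM in the other libraries of the group. Its summed ER chaperones were the lowest of the group at 3447 CPM. Summed hepatocyte markers in the lung were 77.4 CPM against 2.79 to 4.26 CPM in the others of its group. Summed neutrophil markers in the lung were 717 CPM against 36.98 to 153.7 CPM, and summed fasting genes in the liver 15198 CPM against 5870 to 9867 CPM. Their part was not tested.

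Male replicate 72 at 300 mg/kg-d held the highest Hspa5 of its group in both tissues. Its liver held 3290 CPM of Hspa5 (group median 1040), 1124 CPM of Herpud1 (427), 17.998 CPM of Ddit3 (4.58) and 30.7 CPM of Asns (10.9), with Chac1 at 0.625 CPM (2.93) and Xbp1 at 253 CPM (268). Its lung held 1027 CPM of Hspa5 (group median 571) and 347 CPM of Xbp1 (272). Vehicle female replicate 11 held 12.4 CPM of Chac1 (1.38) and 17.8 CPM of Trib3 (3.92) in liver, so high values of these 2 genes were also found without 4-MEI.

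The genes covaried among libraries of the same group, with both signs in liver and mostly positively in lung. After each group's mean log2 CPM was subtracted, 20 of 36 pairs in liver were correlated past an adjusted permutation p of 0.05 (100000 resamples within groups), 11 positively and 9 negatively. In lung it was 24 of 45 pairs, 22 positively and 2 negatively. Correlated pairs were common: of all pairs of genes, 35.6% in liver and 45% in lung had an absolute r at least that of the weakest pair called here (0.19 and 0.18), beside 21 of 36 and 25 of 45 pairs of the 10 genes. In liver Ddit3 and Hspa5 had r = 0.61 (rho = 0.50, adjusted permutation p = 4e-05 for both, 180 libraries), with r = 0.56 without the 2 farthest libraries and 0.74, 0.39 and 0.42 within days 2, 5 and 28. Atf4 and Ddit3 had r = 0.51 (rho = 0.49), 0.50 without the 2 farthest. Chac1 and Trib3 ran the other way. Ddit3 and Chac1 had r = -0.46 (rho = -0.42), and Atf4 and Trib3 r = -0.40 (rho = -0.39), negative on each of the 3 days. In lung Hspa5 and Xbp1 had r = 0.65 (rho = 0.63), Atf4 and Ddit3 r = 0.64 (rho = 0.56) and Atf5 and Ddit3 r = 0.60 (rho = 0.53), with 0.60, 0.55 and 0.58 without the 2 farthest (adjusted permutation p = 3.5e-05 for r). Within days 2, 5 and 28, r of Hspa5 and Xbp1 was 0.82, 0.66 and 0.54. These p-values rest on the smallest value that the resamples can give, 1e-05. Libraries of a group share a table and its scaling. Of the pairs past the threshold, 14 in liver and 22 in lung had the same sign within each day.

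**Figure D4:**
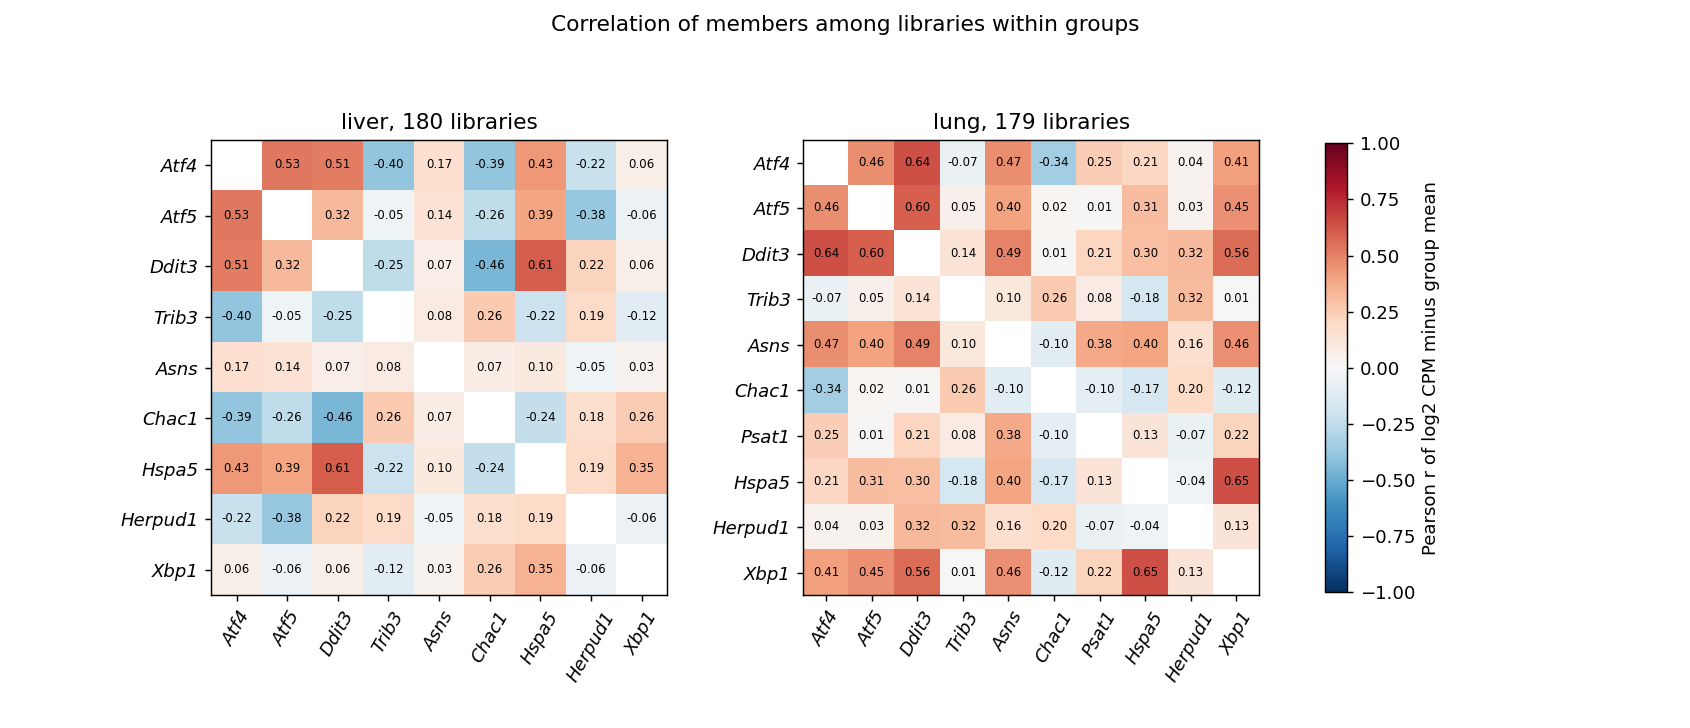
Pearson r between genes over libraries after subtraction of the group mean of log2 CPM, in liver (left, 9 genes) and lung (right, 10 genes), from -1 in blue to 1 in red. Liver holds a positive set of Atf4, Atf5, Ddit3 and Hspa5, with Chac1 negative to all 4, and lung is mostly positive.

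Over all genes measured in all 3 days (12475 in liver and 15161 in lung), the nearest neighbours of Hspa5 by this correlation were Manf, Hyou1 and Creld2 in liver (r = 0.96, 0.94 and 0.92) and Hyou1, P4ha1 and Hsp90b1 in lung (r = 0.85, 0.85 and 0.84). Manf and Creld2 were also nearest to Xbp1 in lung (r = 0.80 and 0.70). Ddit3 was nearest to Uspl1 in liver (r = 0.65) and to Fam50a in lung (r = 0.80). Atf4 was nearest to Eif1, a translation start factor, in lung (r = 0.84) and to Chka in liver (r = 0.67). Herpud1 was nearest to Cln8 in liver (r = 0.75) and to Rgcc in lung (r = 0.88). Trib3 was nearest to Fbxo21 (r = 0.76), Chac1 to Wsb1 (r = 0.72) and Atf5 to Slc30a10 (r = 0.83) in liver. For Asns in liver no gene exceeded r = 0.39.

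Liver and lung libraries with the same title number were compared over 49, 42 and 46 pairs on days 2, 5 and 28. Deviations from the group mean correlated for Herpud1 (r = 0.65, rho = 0.63) and Hspa5 (r = 0.63, rho = 0.61), each with an adjusted permutation p of 3.33e-05 for r and 5e-05 for rho. Without the 2 farthest pairs r was 0.62 and 0.59. Within days 2, 5 and 28 it was 0.55, 0.75 and 0.71 for Herpud1 and 0.77, 0.50 and 0.55 for Hspa5. Trib3 had r = 0.44, Atf5 0.35, Atf4 0.33 and Xbp1 0.32, which also passed, while Asns (r = 0.18), Psat1 (r = 0.17, 91 pairs) and Chac1 (r = -0.03) did not. Ddit3 passed by rho (0.28) and not by r (0.14). With the place of a library among its consecutive title numbers removed, r was lower for Herpud1 (0.52), Atf5 (0.28) and Atf4 (0.24). It was 0.62 for Hspa5 and 0.43 for Trib3, and higher for Xbp1 (0.41). These correlations are given without the share over all genes. The labels do not say that equal numbers are the same mouse.

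**Figure D5:**
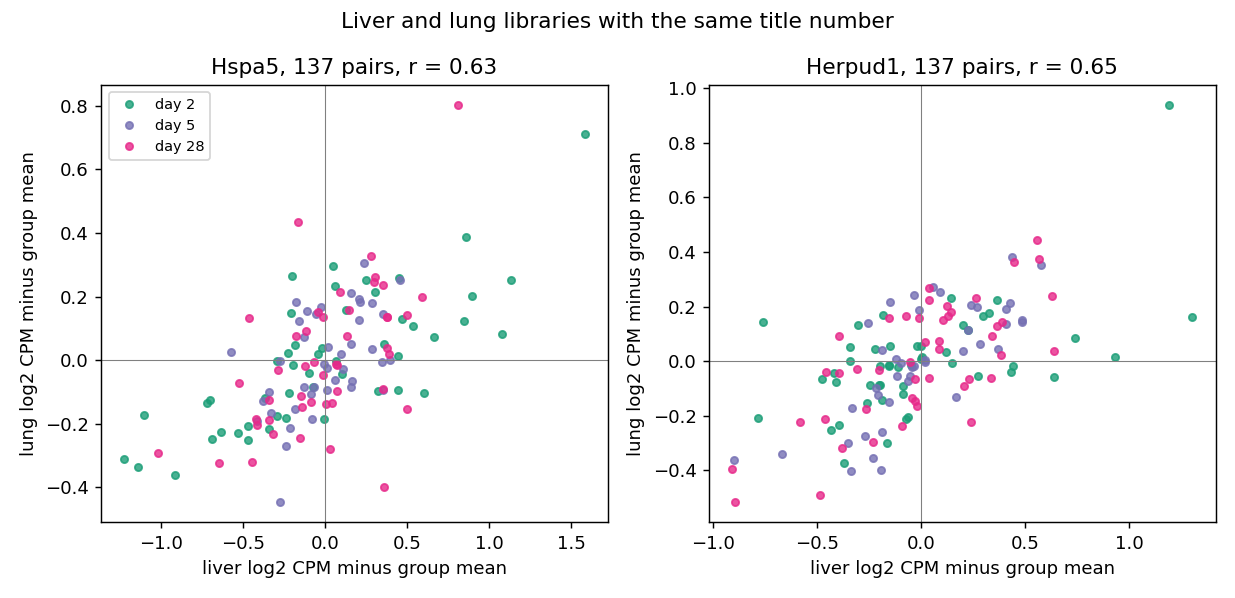
Log2 CPM minus group mean of Hspa5 (left) and Herpud1 (right) in the lung against the liver library with the same title number, coloured by day. Points run from lower left to upper right in both panels, with r = 0.63 and 0.65 over all pairs.

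Levels also followed the place of a library among its 8 consecutive title numbers. The labels do not say what this place reflects. In liver the slope was called for Atf5 at -0.15 log2 units per place on days 5 and 28 (adjusted p = 4.60e-13 and 1.13e-14, edgeR's quasi-likelihood test), which is -1.08 over the 7 steps of a block on day 28. Herpud1 ran the other way at 0.093, 0.092 and 0.090 on days 2, 5 and 28 in liver, and at 0.076 and 0.081 on days 5 and 28 in lung. Atf4 had slopes of -0.055 and -0.050 in liver on days 5 and 28, and of 0.048 on day 2. Chac1 in lung had 0.050 and 0.063 on days 5 and 28 and -0.043 on day 2. In liver 3, 5 and 5 of the genes were called on days 2, 5 and 28, beside 7.52%, 31.7% and 36.1% of all genes, and in lung 1, 5 and 3, beside 4.77%, 15% and 16.3%. With place removed, the liver correlation of Atf4 and Atf5 moved from 0.53 to 0.29, that of Atf5 and Herpud1 from -0.38 to -0.10, and that of Ddit3 and Hspa5 from 0.61 to 0.57.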

How the data were processed

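Libraries from total RNA (a stranded mRNA kit, per the labels' protocols) were sequenced, and the authors deposited raw read counts per gene in 6 tables, 1 per tissue and day. Per the submitters' processing notes Trimmomatic, Bowtie2, SAMtools and HTSeq were used with build mm10; no source used here gives their versions or whether reads were counted by strand. Groups followed the titles. Each table was fitted with edgeR 4.0.16 in R 4.3.3 (filterByExpr, TMM, robust quasi-likelihood), with all 10 groups sharing 1 dispersion fit, and p-values were adjusted over all genes tested (Benjamini-Hochberg, threshold 0.05). Between 12627 and 15675 genes were tested per table. Trends used dose as a number, and liver and lung were fitted together for tissue contrasts. Sex contrasts used vehicle mice. Library totals of 7253910 to 22527309 reads limit genes near 1 CPM. Correlations used log2 CPM with a prior count of 2. Promoters came from RefSeq (GRCm38.p6), and exon lengths and overlaps from GENCODE M21 (GRCm38). DESeq2 1.42.0, other scaling, no filter, other groups fitted, place as a term and leaving out libraries were alternatives, and the place slopes and place-removed correlations were added after seeing the data. The fit was tested on simulated data. The genes and lists were chosen with earlier results of these data known; the genes named from the pathway lists were the up to 4 of smallest adjusted p in each list at the highest dose. An unnamed column, equal to the sum of its table's libraries, was not used.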

Additional observations from a re-analysis of the deposited data

Results flagged for a closer look

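Dixon's test at the 95% level was applied to 600 groups of a gene, and 67 of them (11.2%) held a library apart. For normally distributed values chance gives about 1 in 20. The test took CPM without a log, and the part of skewed levels in this share was not tested. Among the 95 groups whose values are printed or lie behind a call, 15 held one. In livers of day 2, vehicle female replicate 11 was highest for Chac1 (12.4 CPM), Trib3 (17.8 CPM) and Herpud1 (409 CPM). Female replicate 64 at 200 mg/kg-d was highest for Asns (9.52 CPM) and Herpud1 (949 CPM) in liver and for Atf4 (253 CPM), Trib3 (11.04 CPM) and Herpud1 (449 CPM) in lung. Male replicate 72 at 300 mg/kg-d was highest for Ddit3 (17.998 CPM) and Herpud1 (1124 CPM) in liver. Ddit3 was highest at 7.13 CPM in the liver of female replicate 80 at 300 mg/kg-d and at 61.5 CPM in the lung of male replicate 66 at 300 mg/kg-d. It was lowest at 17.9 CPM in the lung of male replicate 53 at 200 mg/kg-d, and at 3.30 CPM in the liver of male replicate 216 at 1250 ppm on day 28. Atf4 in the lung of vehicle female replicate 9 on day 2 was highest at 183.9 CPM. The effect of 300 mg/kg-d on Herpud1 on day 2 differed between tissues, by 0.60 log2 units (liver minus lung) in a test of the difference itself, which took equal title numbers as separate libraries. The difference did not pass with a replicate block on these numbers, in a fit with fewer samples.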

How the results depend on the processing

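Counts of calls among the 10 genes were small, and those against vehicle, of sex means, of trends and of tissue differences of effects changed with the processing. Against vehicle, the 0 calls of the 472 tests became 3 when each fit held just its own 2 groups, and 2 with place as a term. The 3 were Herpud1 in female livers of day 2 at 300 mg/kg-d (0.63, adjusted p = 0.0207), Herpud1 in male lungs at 200 mg/kg-d (-0.22, adjusted p = 0.0418) and Hspa5 in female lungs at 300 mg/kg-d (-0.31, adjusted p = 0.0114). The 2 were Chac1 in female lungs of day 2 at 200 mg/kg-d (-0.44, adjusted p = 0.0215) and Ddit3 in male livers of day 28 at 150 ppm (-0.62, adjusted p = 0.0435). Sex means gave 2 calls with DESeq2 and 2 with place as a term, the second being Herpud1 in liver on day 2 (0.46 in edgeR, adjusted p = 0.0575; 0.0459 in DESeq2). Leaving out 1 library moved the count against vehicle between 0 and 1 in liver and in lung at 300 mg/kg-d. It moved the sex mean at 300 mg/kg-d between 0 and 1 in liver and between 0 and 2 in lung, and trends between 0 and 2 in liver on day 2, 0 and 1 in liver on day 28 and 0 and 1 in lung on day 2. Sex differences in vehicle livers moved between 1 and 2, 1 and 2, and 1 and 3 on days 2, 5 and 28. Against CPM of the library total, 6 called tissue differences reversed: Atf4 to -0.67, -0.81 and -0.97, Trib3 on day 2 to -0.25, and Xbp1 on days 5 and 28 to -0.21 and -0.20, by the change of scale itself. The lung correlation of Chac1 and Herpud1 reversed from 0.20 to -0.079 with place removed. Equal title numbers pair liver with lung by number only: their libraries correlated above 0.1 in 36 of 49, 16 of 42 and 24 of 46 pairs on days 2, 5 and 28, and 39, 20 and 31 correlated best with their own number. With a replicate block on these numbers, the Herpud1 tissue difference of effects was 0.35 (adjusted p = 0.212) and the count of such calls 0, in a fit with fewer samples. Cause was not tested otherwise. Liver Psat1, near 0.4 CPM, is limited by depth.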
